A study of Mus musculus with 21 samples.

Results

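The genes described here are 10 members of the Notch pathway, measured in mouse epidermal keratinocytes: the receptors Notch1, Notch2 and Notch3, the ligands Jag1, Jag2 and Dll1, and the target genes Hes1, Hes5, Hey1 and Heyl. They were chosen by exact gene symbol from the deposited tables, and all 10 were found in each of the 3 tables, which list 43923 pairs of a gene and a locus each. Notch receptors are activated by ligands on neighbouring cells. The ligand exposes the receptor to a sheddase and then to gamma-secretase, and the freed intracellular domain binds the DNA-binding protein RBPJ and switches on Hes and Hey genes, which encode transcriptional repressors. In the epidermis the pathway is known for its part in the commitment of basal keratinocytes to differentiation and in the fate choices of hair follicle cells.

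The study deposited 21 libraries of polyadenylated RNA in 7 groups of 3. Of these, 9 wild type libraries stood behind a table of 3 populations, named HFSC, CD34a6 and bulk in that table. The populations were FACS-purified hair follicle stem cells (HFSCs), HFSCs from culture (titled 3C-HFSCs), and total epidermal cells. The last of these was read as bulk. Neither the labels nor the table say whether the column HFSC or the column CD34a6 held the cultured cells, and the column names are kept. A high or low value in the column HFSC is therefore not to be read as a trait of freshly purified stem cells. Marker values of both columns are given below, where all 7 bulge markers were lower in HFSC than in CD34a6. The other 12 libraries also came from 3C cultures. For these 12, cells of the whole epidermis were kept for 10 to 14 days. They were either sorted on alpha-6 integrin into CD34+ and CD34neg fractions (CD34 is a surface marker of bulge stem cells) or kept for 48 h with dorsomorphin, which blocks BMP receptor kinases and AMPK, or cyclopamine, an inhibitor of the Hedgehog transducer Smoothened. Genotype is not labelled for these 12, strain, sex and age are not labelled for any of the 21, and no untreated culture was part of the drug table. Whether replicate libraries stem from different mice or dishes is not labelled, so p-values may measure technical spread alone.

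Expression was given as 1 FPKM value (fragments per kilobase of transcript, scaled to the mapped fragments of a library) per gene and population, as the authors estimated it over the libraries of a population. There was therefore no spread between libraries to print, the read depth was unknown, and a difference was called only where the authors' adjusted p was under 0.05. FPKM values were compared within a table only, since the tables were made separately. FPKM summed over all loci differed between populations, so that rescaling each population to the same sum moved all log2 folds by 0.93 for HFSC against bulk, by 1.17 for CD34a6 against bulk and by -0.25 for HFSC against CD34a6. With that rescaling the share of called loci that were higher in CD34a6 than in bulk was 59.1%, against 47.4% as deposited. The median log2 fold of all loci, with 1 FPKM added to each value, was -0.11 for HFSC against bulk. No called difference of the 10 Notch genes changed its sign under either adjustment.

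Marker genes showed what else differed between the populations. The summed FPKM of 8 suprabasal markers was 2044 in HFSC, 2504 in CD34a6 and 78218 in bulk, and all 8 fell in both HFSC and CD34a6 relative to bulk. The 7 bulge markers summed to 124.7 FPKM in HFSC, 11238 in CD34a6 and 4854 in bulk, and all 7 were lower in HFSC than in CD34a6, although both columns carry names of hair follicle stem cells. Krt15 made up most of the sums of CD34a6 and bulk, at 37.9 FPKM in HFSC, 9923 in CD34a6 and 4791 in bulk. Cd34 stood at 8.70 FPKM in HFSC, 327 in CD34a6 and 10.6 in bulk. Sox9 (55.2 against 20.4 FPKM) and Tbx1 (14.8 against 10.3 FPKM) had higher values in HFSC than in bulk, and the other bulge markers had lower ones. Of the 7 bulge markers, 1 passed the threshold as higher and 4 as lower in HFSC than in bulk, against 19.0% and 24.7% of all tested loci. In CD34a6 against bulk 6 passed as higher and 0 as lower, against 22.0% and 24.3%. The 5 basal markers summed to 16916 FPKM in HFSC, 9422 in CD34a6 and 8781 in bulk. In HFSC, 4 of the 5 were called higher than in bulk, against 19.0% of all tested loci. Against CD34a6, 3 of the 5 were called higher in HFSC, where 25.2% of all tested loci were. In CD34a6 against bulk 3 were called higher and 1 lower, against 22.0% and 24.3% of all tested loci. The 7 immune markers summed to 1.35 FPKM in HFSC, 5.50 in CD34a6 and 340.9 in bulk. The part of cell makeup in the Notch values below was not tested, and in RNA from mixed cells fewer cells of a type cannot be told apart from less RNA per cell.

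Across the 3-population table the receptors and ligands differed between populations in both directions, while the leading target gene Hes1 passed the threshold in no pair. In HFSC against bulk, 4 of 9 tested members were higher and 3 were lower, against 19.0% and 24.7% of all tested loci. In CD34a6 against bulk, 2 of 9 tested members were higher and 2 were lower, against 22.0% and 24.3% of all tested loci. In HFSC against CD34a6, 4 of 8 tested members were higher and 2 were lower, against 25.2% and 29.0% of all tested loci. The median log2 fold of the tested members, with 1 FPKM added, was -0.30 for HFSC against bulk, where all tested loci had -0.11. It was -0.14 for CD34a6 against bulk, where all tested loci had 0.00, and 0.69 for HFSC against CD34a6, where all tested loci had -0.07. The first of these medians changed sign with the rescaling (0.62), as did the second (0.55). The pairs share their populations, so their counts are not independent of each other.

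**Figure D1:**
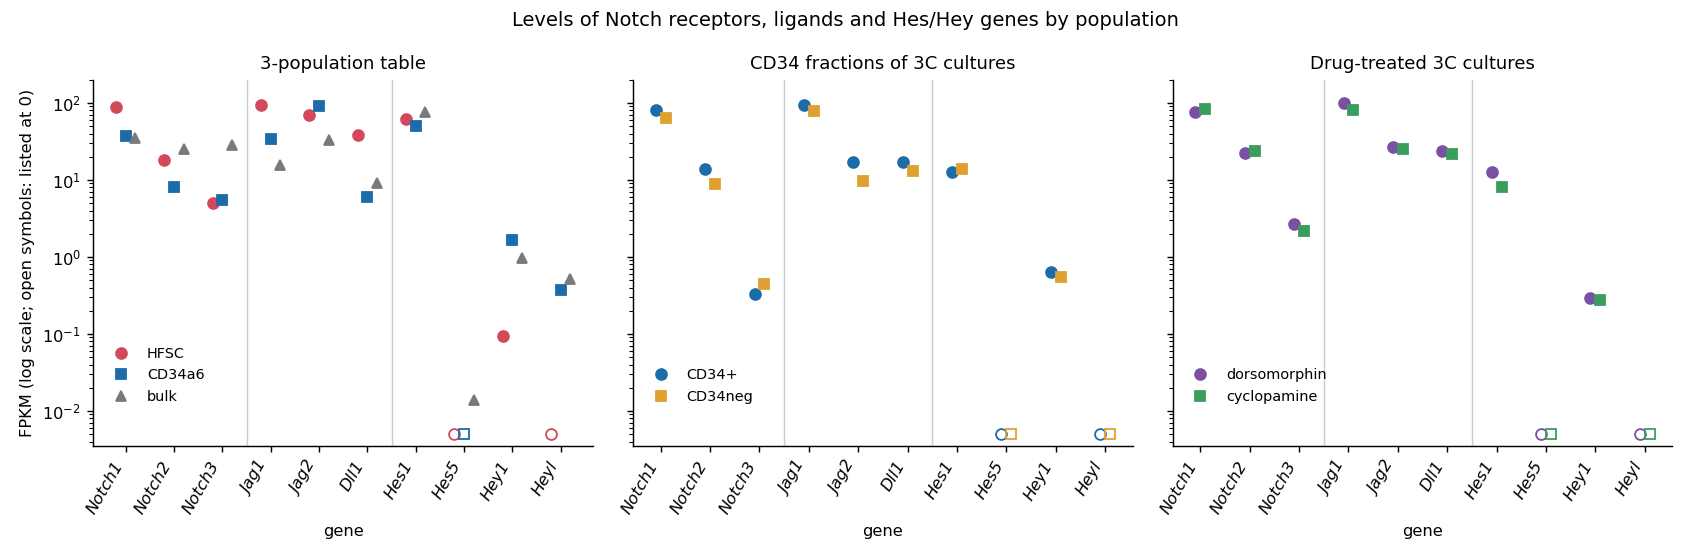
Expression of the 10 members in the 7 populations, in FPKM, with a panel for each of the 3 deposited tables and 1 point per gene and population (the authors' value, no replicate error). In the 3-population panel Notch1, Jag1 and Dll1 stand highest in HFSC, Notch3 stands highest in bulk, and Hes5 and Heyl lie at or near 0.

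Notch1, the main receptor of basal keratinocytes, lies on the minus strand of chromosome 2 (GRCm38, chr2:26445696-26516663). It stood at 88.4 FPKM in HFSC, 36.9 FPKM in CD34a6 and 35.5 FPKM in bulk. As deposited, HFSC thus stood alone above the other populations, which were nearly level. With the populations rescaled to the same FPKM sum, CD34a6 lay above bulk (log2 fold 1.23) and HFSC stayed highest. The rescaled fold was not tested. In the authors' deposited table Notch1 was 2.49-fold higher in HFSC than in bulk (log2 fold 1.32, adjusted p = 0.00204) and 2.40-fold higher in HFSC than in CD34a6 (adjusted p = 0.000212). CD34a6 and bulk did not differ past the threshold in the authors' deposited table (log2 fold 0.06, adjusted p = 0.887). A second line at the Notch1 locus, for 0610009E02Rik and Gm13568 on the opposite strand, stood at 0.388 FPKM in HFSC, 0.657 FPKM in CD34a6 and 0.582 FPKM in bulk. The library kit was directional, but whether strand was used in counting is not given in the sources used here.

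Notch2, a receptor that epidermal cells express beside Notch1, lies on the plus strand of chromosome 3 (chr3:98013527-98150361). It stood at 17.9 FPKM in HFSC, 8.0 FPKM in CD34a6 and 25.2 FPKM in bulk, so that CD34a6 was the low population. Notch2 in the authors' deposited table was 3.15-fold lower in CD34a6 than in bulk (log2 fold -1.66, adjusted p = 0.000212) and 2.24-fold higher in HFSC than in CD34a6 (adjusted p = 0.000212). HFSC and bulk did not differ past the threshold in the authors' deposited table (log2 fold -0.50, adjusted p = 0.123).

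Notch3 is best known from the mural cells of blood vessels and is also made in the epidermis. It lies on the minus strand of chromosome 17 (chr17:32113429-32166880). Its level was 5.01 FPKM in HFSC, 5.56 FPKM in CD34a6 and 28.0 FPKM in bulk, and here bulk alone was high. In the authors' deposited table it was 5.59-fold lower in HFSC than in bulk (log2 fold -2.48) and 5.04-fold lower in CD34a6 than in bulk (log2 fold -2.33), both with an adjusted p of 0.000212. HFSC and CD34a6 did not differ past the threshold (log2 fold -0.15, adjusted p = 0.386 in the authors' deposited table). Of the 4 mural markers, Acta2, a smooth muscle actin, stood at 62.1 FPKM in HFSC, 0.289 FPKM in CD34a6 and 1.19 FPKM in bulk. Rgs5, a pericyte gene, stood at 0.0233 FPKM in HFSC, 0.00645 FPKM in CD34a6 and 0.0555 FPKM in bulk. Pdgfrb, a pericyte receptor, stood at 0.00651 FPKM in HFSC, was listed at 0 in CD34a6 and stood at 0.00696 FPKM in bulk, and Des, a muscle filament gene, was listed at 0 in HFSC and CD34a6 and stood at 0.00759 FPKM in bulk. Rgs5, Pdgfrb and Des were not tested between these populations and lay near 0 in each of them, so no order is read from their values. Acta2 was highest in HFSC. The suprabasal and immune marker sums given above were, like Notch3, highest in bulk. The part of mural, suprabasal or immune cells in the Notch3 values was not tested.

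Within a population the receptors can be set side by side per length, and their shares do not depend on scaling. Of the summed FPKM of the 3 receptors, Notch1 held 79.4% in HFSC, 73.1% in CD34a6 and 40.0% in bulk. Notch2 held 16.1% in HFSC, 15.9% in CD34a6 and 28.4% in bulk. Notch3 held 4.50% in HFSC, 11.0% in CD34a6 and 31.6% in bulk. Bulk thus held the 3 receptors in nearly like amounts, with Notch1 1.26 times Notch3, while in HFSC Notch1 was 17.6 times and in CD34a6 6.63 times Notch3. The shares have no replicate error and were not tested.

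**Figure D2:**
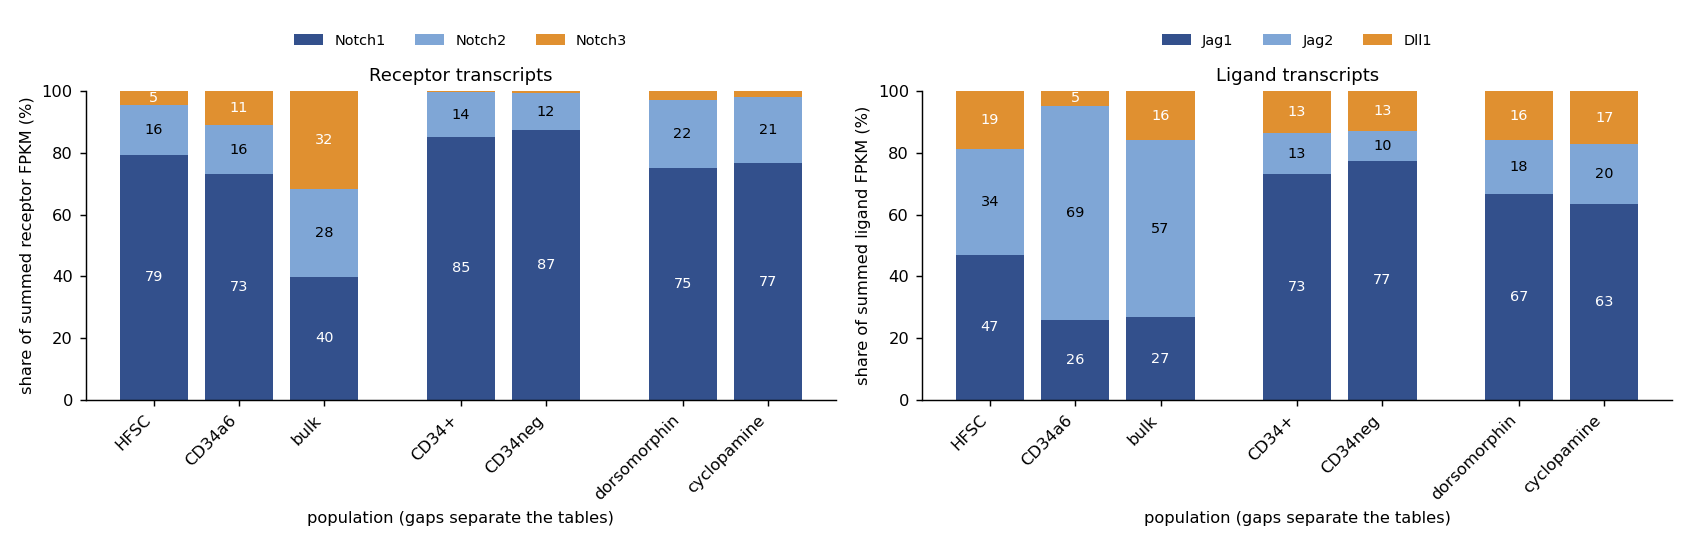
Share of each receptor in the summed FPKM of Notch1, Notch2 and Notch3, and of each ligand in the summed FPKM of Jag1, Jag2 and Dll1, in percent, for the 7 populations, with 1 stacked bar per population. Notch1 held 79.4% of the receptor sum in HFSC and 40.0% in bulk, and Jag1 held 47.0% of the ligand sum in HFSC and 26.8% in bulk.

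The start regions of the receptor genes are shown because Hes repressors, the products of Notch targets, bind N-box sequences. The 250 bases before the start site were taken from RefSeq (GRCm38.p6), where 7 of the 10 members matched by symbol, and are printed on the strand of the gene, with matches to CACNAG or, on the other strand, CTNGTG in capitals. The start sites are those of RefSeq, which need not match the ends of the deposited loci: the window of Notch1 lies inside the deposited Notch1 locus, and that of Notch2 overlaps the locus start by a few bases. The positions are chr2:26503823-26504072 (minus) for Notch1, chr3:98013288-98013537 (plus) for Notch2 and chr17:32166891-32167140 (minus) for Notch3.
Notch1: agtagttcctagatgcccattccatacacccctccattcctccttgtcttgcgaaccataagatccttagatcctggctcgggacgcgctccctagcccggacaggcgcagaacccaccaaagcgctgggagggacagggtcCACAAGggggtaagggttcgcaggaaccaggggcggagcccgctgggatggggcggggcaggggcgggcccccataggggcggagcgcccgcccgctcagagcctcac
Notch2: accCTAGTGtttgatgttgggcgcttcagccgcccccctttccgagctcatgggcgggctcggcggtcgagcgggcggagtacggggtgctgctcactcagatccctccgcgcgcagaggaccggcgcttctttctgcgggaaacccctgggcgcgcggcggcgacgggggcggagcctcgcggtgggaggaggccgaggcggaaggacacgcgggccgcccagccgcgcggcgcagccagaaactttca
Notch3: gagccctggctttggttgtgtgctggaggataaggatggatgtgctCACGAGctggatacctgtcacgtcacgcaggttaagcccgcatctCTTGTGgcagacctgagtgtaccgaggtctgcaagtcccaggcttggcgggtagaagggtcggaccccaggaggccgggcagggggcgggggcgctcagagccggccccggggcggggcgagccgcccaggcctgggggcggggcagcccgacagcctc
Notch1 and Notch2 held 1 match each and Notch3 held 2, which overlap no match to the RBPJ core. The windows of Jag1, Jag2, Dll1 and Hes5 held none. Of all 32817 windows of this length, 36.7% held at least 1 match and 8.18% held 2 or more. A match of these letters describes the sequence and is no evidence of binding.

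Jag1, a ligand that hair follicle and basal cells present to their neighbours, lies on the minus strand of chromosome 2 (chr2:137081456-137116644). It stood at 95.1 FPKM in HFSC, 33.8 FPKM in CD34a6 and 15.5 FPKM in bulk, and all 3 pairs differed. In the authors' deposited table it was 6.14-fold higher in HFSC than in bulk (log2 fold 2.62, adjusted p = 0.000212), 2.18-fold higher in CD34a6 than in bulk (log2 fold 1.12, adjusted p = 0.00405), and 2.81-fold higher in HFSC than in CD34a6 (log2 fold 1.49, adjusted p = 0.000212).

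Jag2, the other Jagged ligand, lies on the minus strand of chromosome 12 (chr12:112908590-112929495). It stood at 69.2 FPKM in HFSC, 90.6 FPKM in CD34a6 and 33.1 FPKM in bulk. CD34a6 was thus the highest population for Jag2, where HFSC was the highest for Jag1. Jag2 in the authors' deposited table was 2.09-fold higher in HFSC than in bulk (log2 fold 1.06, adjusted p = 0.00336) and 2.73-fold higher in CD34a6 than in bulk (log2 fold 1.45, adjusted p = 0.000212). HFSC was 1.31-fold lower than CD34a6 in the authors' deposited table (log2 fold -0.39, adjusted p = 0.0225). The microRNA gene Mir6941 shares its locus and was listed at 0 in all 7 populations.

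Dll1, a Delta-like ligand known from epidermal stem cell clusters in human skin, lies on the minus strand of chromosome 17 (chr17:15367354-15379475). It stood at 38.1 FPKM in HFSC, 6.01 FPKM in CD34a6 and 9.18 FPKM in bulk, so that HFSC alone was high. In the authors' deposited table it was 4.14-fold higher in HFSC than in bulk (log2 fold 2.05, adjusted p = 0.000212) and 6.34-fold higher in HFSC than in CD34a6 (log2 fold 2.66, adjusted p = 0.000212). The lower value of CD34a6 against bulk did not pass the threshold (log2 fold -0.61, adjusted p = 0.215 in the authors' deposited table).

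Summed over the 3 ligands, expression was 202.4 FPKM in HFSC, 130.4 FPKM in CD34a6 and 57.8 FPKM in bulk. Jag1 held 47.0% of that sum in HFSC, 25.9% in CD34a6 and 26.8% in bulk. Jag2 held 34.2% in HFSC, 69.5% in CD34a6 and 57.3% in bulk. Dll1 held 18.8% in HFSC, 4.61% in CD34a6 and 15.9% in bulk. Jag1 was the leading ligand in HFSC, and Jag2 was the leading ligand in CD34a6 and in bulk.

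Hes1, a repressor and a widely expressed Notch target, lies on the plus strand of chromosome 16 (chr16:30064384-30067796). It stood at 62.1 FPKM in HFSC, 49.9 FPKM in CD34a6 and 76.8 FPKM in bulk. Among loci with at least 1 FPKM its level lay at percentile 88.3 in HFSC, 87.5 in CD34a6 and 87.7 in bulk. No pair passed the threshold in the authors' deposited table: the log2 fold was -0.31 for HFSC against bulk (adjusted p = 0.307), -0.62 for CD34a6 against bulk (adjusted p = 0.103) and 0.32 for HFSC against CD34a6 (adjusted p = 0.193). A p that misses the threshold does not show that the levels were alike.

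Hey1, a repressor of the Hey family, lies on the minus strand of chromosome 3 (chr3:8663359-8667256) and was low throughout. It stood at 0.0926 FPKM in HFSC, 1.66 FPKM in CD34a6 and 0.955 FPKM in bulk, and HFSC was the low population. In the authors' deposited table it was 10.3-fold lower in HFSC than in bulk (log2 fold -3.37) and 18.0-fold lower in HFSC than in CD34a6 (log2 fold -4.17), both with an adjusted p of 0.000212. CD34a6 and bulk did not differ past the threshold (log2 fold 0.80, adjusted p = 0.0900 in the authors' deposited table). Heyl, another Hey repressor (chr4:123233556-123249875, plus strand), was listed at 0 in HFSC and stood at 0.371 FPKM in CD34a6 and 0.515 FPKM in bulk. The authors' deposited table calls it lower in HFSC than in bulk (adjusted p = 0.000212), but no fold is given against a value of 0. CD34a6 and bulk did not differ past the threshold for Heyl (adjusted p = 0.669 in the authors' deposited table), and the pair of HFSC and CD34a6 was not tested.

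Hes5, a target best known from neural progenitors, lies on the plus strand of chromosome 4 (chr4:154960770-154962371). It was listed at 0 in HFSC and in CD34a6, stood at 0.0138 FPKM in bulk, and was listed at 0 in the 4 populations of the other tables. The authors tested it in no pair. Hes1, Hey1 and Heyl had no RefSeq window, so Hes5 was the only target gene that could be searched for motifs. Among the 7 members with a window, Hes5 alone held the RBPJ core TGGGAA, read on either strand. Its start region is therefore shown, with the matches in capitals (chr4:154960673-154960922, plus strand, GRCm38.p6). This window overlaps the deposited locus, whose start lies before the RefSeq start site.
Hes5: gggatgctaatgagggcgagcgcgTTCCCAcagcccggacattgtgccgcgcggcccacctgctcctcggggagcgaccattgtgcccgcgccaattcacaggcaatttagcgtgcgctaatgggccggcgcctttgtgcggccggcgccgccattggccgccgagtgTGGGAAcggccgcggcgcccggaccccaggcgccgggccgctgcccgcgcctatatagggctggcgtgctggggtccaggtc
The matches lie 226 to 221 bases and 82 to 77 bases before the start site, on opposite strands. Of all 32817 windows, 21.6% held at least 1 match and 2.77% held 2 or more.

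**Figure D3:**
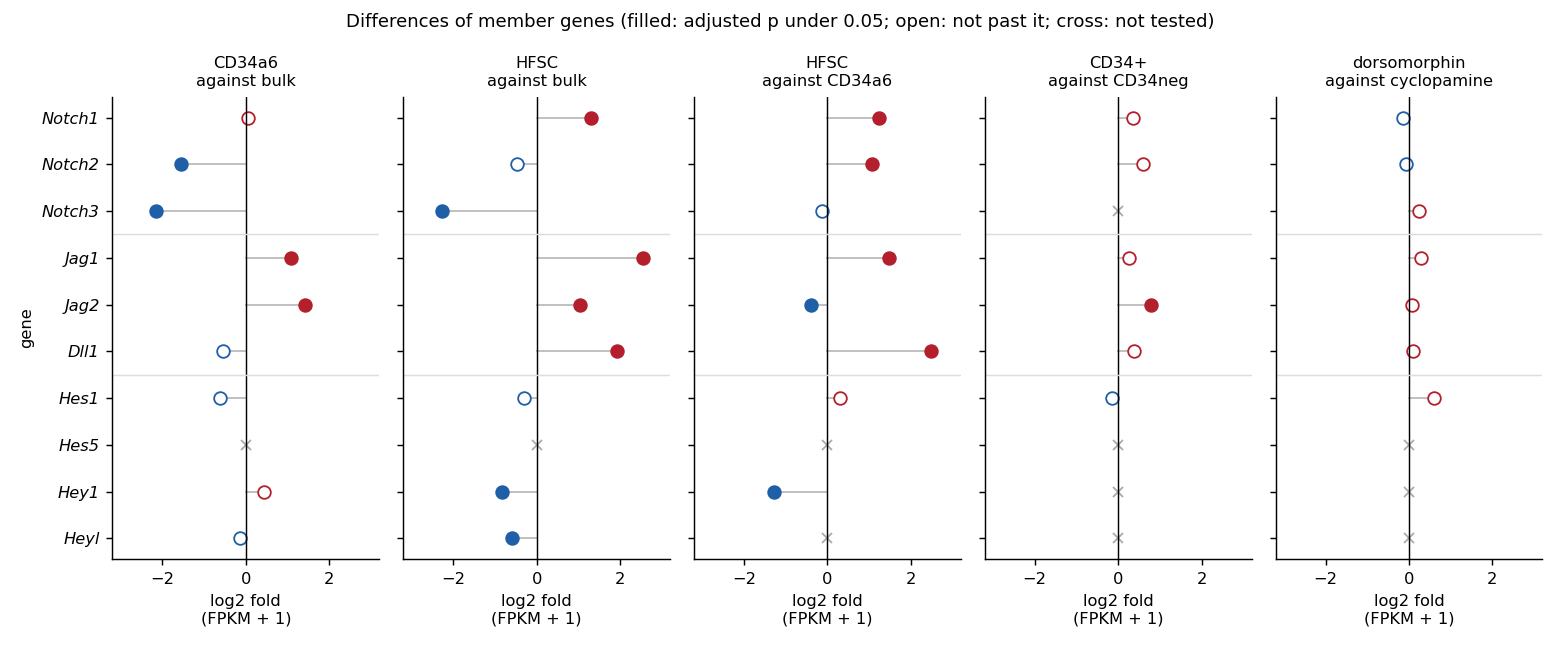
Log2 folds of the members in the 5 comparisons, calculated from the authors' FPKM with 1 added to each value; filled points passed the authors' adjusted p of 0.05 and open points did not, and crosses mark genes the authors did not test. Jag1, Jag2, Dll1 and Notch1 lie to the right of 0 for HFSC against bulk, and the points of the drug comparison are all open.

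Between the sorted fractions of the 3C cultures, Jag2 was the one Notch gene to pass the threshold. Of 6 tested members, 1 was higher in CD34+ than in CD34neg and 0 were lower, against 2.08% and 4.71% of all tested loci. At an unadjusted p under 0.05 the count was 2 of 6, against 22.6% of all tested loci. The median log2 fold of the tested members, with 1 FPKM added, was 0.36, against -0.07 over all tested loci. The called gene was Jag2, at 17.1 FPKM in CD34+ cells and 9.56 FPKM in CD34neg cells, 1.79-fold higher in CD34+ (log2 fold 0.84, adjusted p = 0.0402 in the authors' deposited table). This call did not hold at a threshold of 0.01, which 0.721% of all tested loci passed in the higher direction, nor where a log2 fold of at least 1 was also asked, which 1.43% passed.

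Notch1, Notch2, Jag1 and Dll1 had higher values in CD34+ than in CD34neg cells without passing the threshold. Notch1 stood at 81.5 FPKM in CD34+ and 63.9 FPKM in CD34neg cells (adjusted p = 0.716 in the authors' deposited table). Notch2 stood at 13.7 FPKM in CD34+ and 8.80 FPKM in CD34neg cells (log2 fold 0.64, adjusted p = 0.129 in the authors' deposited table). Neither receptor was called, and Notch3 lay far below them, at 0.325 FPKM in CD34+ and 0.451 FPKM in CD34neg cells, and was not tested. Jag1 stood at 93.1 FPKM in CD34+ and 77.9 FPKM in CD34neg cells (adjusted p = 0.537 in the authors' deposited table). Dll1 stood at 17.2 FPKM in CD34+ and 13.1 FPKM in CD34neg cells (adjusted p = 0.510 in the authors' deposited table). Among the targets, Hes1 stood at 12.5 FPKM in CD34+ and 14.0 FPKM in CD34neg cells (log2 fold -0.16, adjusted p = 0.705 in the authors' deposited table). Hey1 stood at 0.628 FPKM in CD34+ and 0.550 FPKM in CD34neg cells and was not tested, and Heyl was listed at 0 in both. Bulge markers separated these fractions: 6 of 7 were higher in CD34+ cells, and the sum of the 7 was 195.0 FPKM in CD34+ and 54.2 FPKM in CD34neg cells. Cd34 itself is 1 of the 7, at 38.7 FPKM in CD34+ and 2.26 FPKM in CD34neg cells. Its direction was set by the sort and is no separate finding. Of the suprabasal markers, 4 of 6 tested were lower in CD34+ cells, with a sum of 74.4 FPKM in CD34+ and 243.6 FPKM in CD34neg cells, and the part of this in the Jag2 value was not tested.

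Between the inhibitors no member passed the threshold. Of 7 tested members, 0 were higher and 0 lower with dorsomorphin than with cyclopamine in the authors' deposited table, against 1.26% and 1.31% of all tested loci, and 1 of the 7 had an unadjusted p under 0.05, against 12.6% of all tested loci. That gene was Hes1, at 12.8 FPKM with dorsomorphin and 8.15 FPKM with cyclopamine (log2 fold 0.66, adjusted p = 0.0792 in the authors' deposited table). No other tool was run on this table. The median log2 fold of the members was 0.11, against -0.02 over all tested loci.

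Notch1 stood at 76.0 FPKM with dorsomorphin and 84.2 FPKM with cyclopamine. Notch2 stood at 22.3 FPKM with dorsomorphin and 23.5 FPKM with cyclopamine, and Notch3 at 2.71 FPKM with dorsomorphin and 2.16 FPKM with cyclopamine. The receptor values thus differed by at most 1.25-fold. Jag1 stood at 99.5 FPKM with dorsomorphin and 80.9 FPKM with cyclopamine. Jag2 stood at 26.4 FPKM with dorsomorphin and 25.1 FPKM with cyclopamine, and Dll1 at 23.4 FPKM with dorsomorphin and 21.7 FPKM with cyclopamine. Hey1 stood at 0.296 FPKM with dorsomorphin and 0.278 FPKM with cyclopamine and was not tested. The adjusted p of these 6 tested receptors and ligands lay between 0.442 and 0.954 in the authors' deposited table.

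The makeup of the receptors and ligands in the culture tables can be read as shares, which carry no scaling. Notch1 held 85.3% of the receptor sum in CD34+ and 87.4% in CD34neg cells, and Notch3 held 0.340% in CD34+ and 0.616% in CD34neg cells. Jag1 held 73.1% of the ligand sum in CD34+ and 77.5% in CD34neg cells, and 66.6% with dorsomorphin and 63.4% with cyclopamine. Jag1 was therefore the leading ligand in all 4 populations of these tables, as in HFSC. The opposite-strand line at the Notch1 locus stood in these tables at 18.7 FPKM in CD34+ and 16.4 FPKM in CD34neg cells, and 18.1 FPKM with dorsomorphin and 27.4 FPKM with cyclopamine, and its part in the Notch1 values was not tested.

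Beyond the members, 50 other pathway genes were looked up, of which 49 were listed. In HFSC against bulk, 8 of 37 tested rose and 10 fell, against 19.0% and 24.7% of all tested loci. In CD34a6 against bulk, 12 of 37 rose and 7 fell, against 22.0% and 24.3% of all tested loci, and 12 in either direction passed 0.01, against 34.0%. In HFSC against CD34a6, 8 of 37 rose and 11 fell, against 25.2% and 29.0%. In CD34+ against CD34neg, 2 of 31 rose and 0 fell, against 2.08% and 4.71%. With dorsomorphin against cyclopamine 0 of 33 were called, with 7 at an unadjusted p under 0.05, against 12.6% of all tested loci. Nothing particular to the pathway is read from these counts.

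Of the gamma-secretase genes, whose products free the intracellular domain of the receptor, 5 of 7 tested fell and 0 rose in HFSC against bulk, where 24.7% of all tested loci fell and 19.0% rose. In CD34a6 against bulk 4 of 7 fell and 0 rose, where 24.3% of all tested loci fell and 22.0% rose. In HFSC against CD34a6 3 of 7 fell and 1 rose, where 29.0% of all tested loci fell and 25.2% rose. Of these genes, Aph1a had a log2 fold of -0.92 for CD34a6 against bulk as deposited and 0.26 with the populations rescaled to the same FPKM sum. No other called pathway gene changed its sign with that rescaling. Uncalled gamma-secretase folds also turned positive with it. These were Psen2 (0.75) and Aph1b (0.77) in CD34a6 against bulk, and Ncstn (0.74) and Aph1a (0.34) in HFSC against bulk. The group is small and was not tested as a set, so no group pattern is read from its counts. Aph1c, which encodes a gamma-secretase subunit, stood at 0.551 FPKM in HFSC and 5.20 FPKM in bulk (adjusted p = 0.000212 in the authors' deposited table). It has a close paralogue in Aph1b, and the counting could split reads between them. Aph1b was also lower in HFSC, at 2.62 FPKM against 9.81 FPKM in bulk (adjusted p = 0.000212 in the authors' deposited table). The part of such splitting was not tested. Nrarp encodes a feedback inhibitor and is itself a Notch target. It stood at 11.2 FPKM in HFSC, 13.7 FPKM in CD34a6 and 82.8 FPKM in bulk, and fell in HFSC (log2 fold -2.88) and in CD34a6 (log2 fold -2.60) relative to bulk, each at adjusted p = 0.000212 in the authors' deposited table. HFSC and CD34a6 did not differ past the threshold for Nrarp (adjusted p = 0.133 in the authors' deposited table).

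Of the 4 tested glycosyltransferase genes, 2 rose and 0 fell in HFSC against bulk, 3 rose and 0 fell in CD34a6 against bulk, and 0 rose and 2 fell in HFSC against CD34a6. Of the 8 tested genes of the transcription complex, 3 rose and 0 fell in HFSC against bulk, 4 rose and 0 fell in CD34a6 against bulk, and 2 rose and 2 fell in HFSC against CD34a6. Of all tested loci, 19.0% rose and 24.7% fell in HFSC against bulk. These shares were 22.0% and 24.3% in CD34a6 against bulk, and 25.2% and 29.0% in HFSC against CD34a6. The groups are small and were not tested as sets, so no group pattern is read from their counts. Lfng, a Fringe glycosyltransferase that modifies Notch receptors, stood at 20.1 FPKM in HFSC, 50.8 FPKM in CD34a6 and 7.88 FPKM in bulk, and differed in all 3 pairs, the adjusted p in the authors' deposited table being 0.000404 for HFSC against bulk and 0.000212 for the others. Rbpj, the DNA-binding partner of the intracellular domain, stood at 4.97 FPKM in HFSC, 11.6 FPKM in CD34a6 and 4.09 FPKM in bulk. It rose in CD34a6 relative to bulk (log2 fold 1.51, adjusted p = 0.000212) and was lower in HFSC than in CD34a6 (log2 fold -1.22, adjusted p = 0.000212) in the authors' deposited table. HFSC and bulk did not differ past the threshold for Rbpj (adjusted p = 0.313 in the authors' deposited table). Maml2, a coactivator of the complex, stood at 5.35 FPKM in HFSC, 6.64 FPKM in CD34a6 and 0.855 FPKM in bulk, and rose in both relative to bulk (adjusted p = 0.000212 each in the authors' deposited table). Hes6, a member of the Hes family, stood at 8.19 FPKM in HFSC, 12.7 FPKM in CD34a6 and 6.26 FPKM in bulk, and was called in CD34a6 against bulk (adjusted p = 0.0113) and in HFSC against CD34a6 (adjusted p = 0.00513) in the authors' deposited table.

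Of the 4 tested Deltex genes, 0 rose and 2 fell in HFSC against bulk, 1 rose and 2 fell in CD34a6 against bulk, and 2 rose and 1 fell in HFSC against CD34a6. In HFSC against bulk 19.0% of all tested loci rose and 24.7% fell. The shares were 22.0% and 24.3% in CD34a6 against bulk, and 25.2% and 29.0% in HFSC against CD34a6. Dtx2, which fell in both relative to bulk, stood at 16.1 FPKM in HFSC, 12.8 FPKM in CD34a6 and 35.2 FPKM in bulk. Dtx4, which also fell in both, stood at 0.447 FPKM in HFSC, 0.188 FPKM in CD34a6 and 2.88 FPKM in bulk. Dtx3 stood at 15.1 FPKM in HFSC, 94.1 FPKM in CD34a6 and 4.45 FPKM in bulk. It was called higher in CD34a6 than in bulk (log2 fold 4.40, adjusted p = 0.00336) and lower in HFSC than in CD34a6 (log2 fold -2.64, adjusted p = 0.000212) in the authors' deposited table, while HFSC and bulk did not differ past the threshold (adjusted p = 0.142). Of the 4 genes for ligand endocytosis, 2 rose and 2 fell in HFSC against bulk, 3 rose and 0 fell in CD34a6 against bulk, and 2 rose and 2 fell in HFSC against CD34a6. The shares of all tested loci beside these counts are those given for the Deltex genes. Neurl1a, of the Neuralized family of ubiquitin ligases, stood at 3.24 FPKM in HFSC, 0.705 FPKM in CD34a6 and 0.0511 FPKM in bulk, and was called in all 3 pairs in the authors' deposited table. Its relative Neurl1b and Mib2, a Mind bomb ubiquitin ligase, were lower in HFSC than in CD34a6, at 1.54 FPKM in HFSC and 8.51 FPKM in CD34a6 for Neurl1b, and at 7.19 FPKM in HFSC and 29.9 FPKM in CD34a6 for Mib2. Neurl1b was also called in the sorted cultures, at 5.03 FPKM in CD34+ and 2.07 FPKM in CD34neg cells (adjusted p = 0.00656 in the authors' deposited table), as was the coactivator gene Crebbp, at 33.5 FPKM in CD34+ and 17.7 FPKM in CD34neg cells (adjusted p = 0.0424 in the authors' deposited table). Dll4, a ligand known from blood vessels, was tested in no pair, at 0.0225 FPKM in HFSC, 0.0389 FPKM in CD34a6 and 0.00835 FPKM in bulk. Endothelial markers summed to 1.05 FPKM in HFSC, 1.64 FPKM in CD34a6 and 0.236 FPKM in bulk. Most of each sum was 1 gene: Pecam1 in HFSC (0.955 FPKM) and bulk (0.203 FPKM), and Tek in CD34a6 (1.17 FPKM). Notch4, a receptor known from endothelial cells, stood at 0.0753 FPKM in HFSC, 0.116 FPKM in CD34a6 and 0.0630 FPKM in bulk and was not tested either.

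**Figure D4:**
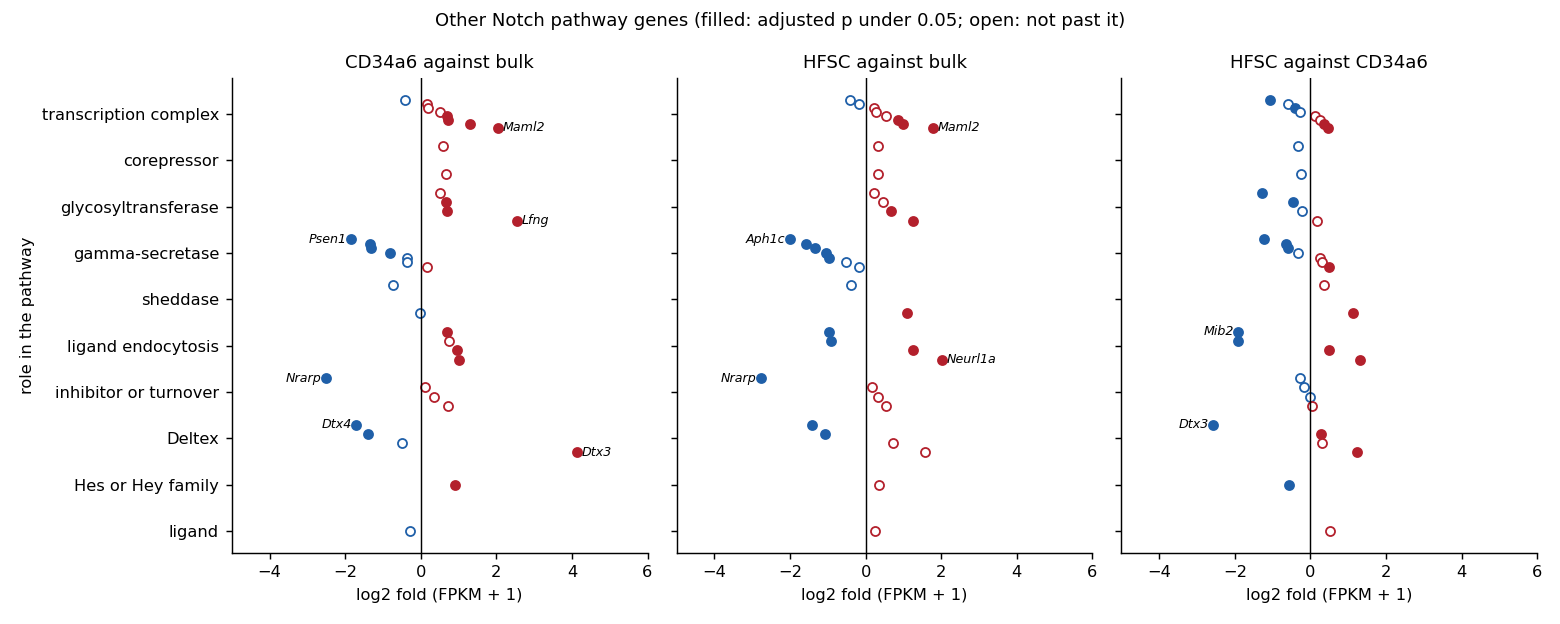
Log2 folds of the other tested pathway genes, with 1 FPKM added to each value, in the 3 pairs of the 3-population table, in rows by role; filled points passed the authors' adjusted p of 0.05 and the outermost called genes of a role are named where they reach far from 0. Without rescaling, gamma-secretase genes lie mostly left of 0 against bulk, while Maml2 and Lfng lie to the right. Of the 7 gamma-secretase genes, 5 were called lower in HFSC and 4 in CD34a6. Of all tested loci, 24.7% were lower in HFSC and 24.3% were lower in CD34a6.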

How the data were processed

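The 7 groups of 3 libraries were taken from the sample titles. The 9 libraries behind the 3-population table went through Cuffdiff, Cufflinks 2.2.1, StringTie 1.1.0, HISAT 0.1.6 and FastQC 0.11.3 per the submitters' processing notes, although a label of the same libraries gives TopHat2. DESeq2 1.8.1, Subread 1.4.2 (featureCounts), TopHat2 2.0.13, cutadapt 1.5 and FastQC 0.11.2 are listed for the other 12 libraries in the submitters' processing notes. Their tables have the Cuffdiff layout per the file headers, so the tool behind the p-values of the 12 is not settled. Reads of all 21 were placed on GRCm38, per the same notes.

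The authors deposited 1 FPKM value per locus and population. Their deposited log2 fold change of a line is log2 of one FPKM over the other, and was turned so that positive means higher in HFSC, in CD34a6 (against bulk), in CD34+ or with dorsomorphin. The deposited test statistic, a score, was not used. Deposited p-values come from the authors' test, with 5e-05 the smallest, and the q-values equalled a Benjamini-Hochberg adjustment over all tested loci of a table to within 5.3e-07. The planned tests on values per library could not be run, because the tables hold none. All calls are therefore the authors' (q under 0.05, printed as adjusted p). Repeated lines were dropped (197 in the 3-population table, 1360 in the CD34 table and 1358 in the drug table). Medians and plots use log2 of FPKM plus 1, which understates the change of low genes.

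The members, the 50 pathway genes and the marker lists were chosen with earlier results of these data known. Pathway genes named were, per comparison, up to 4 called ones of largest fold at 1 FPKM or more, plus Rbpj, Lfng, Nrarp, Hes6 and Dll4. They were ranked by log2 of FPKM plus 1, while the folds printed are the deposited ones, by which Dtx4 would rank among them against bulk. Aph1a, Aph1b, Psen2, Ncstn, Dtx2, Dtx4 and Notch4 were named after their values were seen. Locus ends are the files', with starts counted from 1, and strands are from GENCODE vM21. Python 3.11.15, pandas 2.3.3, numpy 2.4.6 and matplotlib 3.10.9 were used, and the scripts were tested on simulated data.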

Additional observations from a re-analysis of the deposited data

How the results depend on the processing

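No paired analysis was possible because each table holds 1 value per population and none per library, and for the same reason no library could be left out. No called fold of a member changed sign under the alternatives run (pseudocounts of 0.1 and 0.01, populations rescaled to the same FPKM sum, centring on the median of all tested loci, subtraction of a trend with transcript length, and a minimum of 1 FPKM). The median log2 fold of the members reversed to 0.55 for CD34a6 against bulk and to 0.62 for HFSC against bulk with rescaling, and for HFSC against bulk to 0.16 with the length trend subtracted and 1.04 with the minimum of 1 FPKM, which leaves out Hey1 and Heyl. Uncalled folds that reversed with rescaling were, in CD34a6 against bulk, Hes1 (0.55), Dll1 (0.56) and Heyl (0.70), in HFSC against bulk Notch2 (0.43) and Hes1 (0.62), in CD34+ against CD34neg Hes1 (0.25), and in dorsomorphin against cyclopamine Notch2 (0.039). With the length trend subtracted they were Notch1 in CD34a6 against bulk (-0.56) and Hes1 in HFSC against bulk (0.16) and in CD34+ against CD34neg (0.13). At an adjusted p under 0.01, CD34a6 against bulk had 12 calls among the other pathway genes, against 19 at 0.05. In CD34+ against CD34neg that threshold left 0 members, against 1, and 1 other pathway gene, against 2, and asking for a log2 fold of at least 1 also left 0 members. Apart from the stricter threshold and these settings, the cause of the reversals was not tested. The depth of the libraries was unknown, so values near 0, such as those of Hes5 and Heyl, carry no detection limit.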

Other observations

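For Notch1, Notch2, Jag1, Jag2 and Hes1, the 3 loci with the most similar folds were sought among 9160 loci, by the Euclidean distance over the 4 log2 folds with 1 FPKM added (HFSC against bulk, CD34a6 against bulk, CD34+ against CD34neg, and dorsomorphin against cyclopamine). Notch1 lay nearest to Ptk2b (distance 0.0721), Tmem158 and Eprs. Notch2 lay nearest to Cyb561 (0.219), Tnfaip1 and Tmem106a. Jag1 lay nearest to Ppp1r18 (0.184), the cyclin gene Ccnd2 and Snrk, and Jag2 to Rere (0.170), Med13l and Qser1. Hes1 lay nearest to RP23-430D14.1 (0.261), Vma21 and Kdelr1. Notch3, which was not tested in the CD34 table, has no neighbours here, and Dll1, which was tested in all 4, was not among the genes chosen for this search. These neighbours share the populations and tables with the members, and the distance carries no replicate error.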
